A study of Danio rerio with 8 samples.

Results

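Of the 8 zebrafish livers on the arrays, 4 had a high signal of *fasn*, the gene of fatty acid synthase, and 4 had a low one. The 2 sides were chosen by the values of these same arrays: a liver was counted as fasn-high where the brightest transcript cluster of *fasn* had a log2 signal over 8, and as fasn-low otherwise. The log2 signal of *fasn* was 11.43 on batch 1 control 1, 8.97 on batch 1 OF 1, 10.13 on batch 2 control 1 and 9.22 on batch 2 control 2, which made up the fasn-high side. It was 6.39 on batch 1 control 2, 5.27 on batch 1 OF 2, 6.77 on batch 2 OF 1 and 5.57 on batch 2 OF 2, the fasn-low side. In all that follows, the values of each side are given in these 2 orders. The livers nearest to the threshold were batch 1 OF 1 at 8.97 inside it and batch 2 OF 1 at 6.77 outside it, so no liver lay close to 8.

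The livers came from adult wild-type fish of the AB strain, labelled 6 months old, and were hybridised to arrays that report 1 signal for each transcript cluster, a group of probes in 1 gene or in a stretch of it. In each of 2 batches, run at different times, 2 of the arrayed livers came from fish given oligo-fucoidan (OF) and 2 from untreated control fish. OF, a short-chain sulfated sugar from brown seaweed, was given by gavage at 300 mg/kg, 3 times in each week, over 1 month. In batch 1 each side held 1 OF liver and 1 control liver, and the sides equal the replicate numbers. In batch 2 both fasn-high livers were controls and both fasn-low livers had been given OF, so *fasn* level and OF cannot be told apart there. The sources used here do not give the sex of the fish.

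Fatty acid synthase builds palmitate from malonyl-CoA, which acetyl-CoA carboxylase supplies, with NADPH as the reductant. In the liver of vertebrates this pathway is driven after feeding by SREBP-1, the product of *srebf1*, and by the carbohydrate-responsive factor ChREBP, and it is low in fasting. The fatty acids are desaturated by stearoyl-CoA desaturase, the product of *scd*, elongated, and esterified into triglycerides and phospholipids. The genes that follow *fasn* across livers are therefore asked for here, together with those of the pathway that do not.

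Arrays of batch 2 were brighter, with 23.4% to 24.6% of their clusters over a log2 signal of 5, against 15.6% to 17.0% on arrays of batch 1, so batch was a term of the fit. Markers of hepatocytes were bright on every array, with list medians from 11.25 to 12.47. Of the 20 measured, 19 had a lower mean in fasn-high livers (median difference −0.25), against 11623 of all 23673 genes. The median was only −0.06 between the batch 1 controls, −0.05 between the batch 1 OF livers and −0.02 for batch 2 controls minus OF 1. Batch 2 OF 2 had the highest list median, 12.47. Means were also lower for 12 of 14 markers of bile duct (−0.31), 13 of 16 of stellate cells and fibroblasts (−0.39) and 12 of 17 of endothelium (−0.38). For batch 2 controls minus OF 1, however, the medians of these lists were 0.12, 0.16 and −0.0005. Vitellogenin genes, which encode egg yolk proteins made by the female liver, split the arrays another way. The log2 signal of *vtg2* was 2.17, 13.47, 13.86 and 13.93 in fasn-high livers, against 3.63, 13.83, 13.89 and 2.53 in fasn-low livers. It was high in 3 of the 4 fasn-high and 2 of the 4 fasn-low livers. Within batch 1 it was high in both OF livers and low in both controls. Its level and OF cannot be told apart there. Of the 23 measured markers of exocrine pancreas, 2 had a higher mean in fasn-high livers and the list median differed by −2.17 in batch 1 and 0.08 in batch 2, with summed linear signals of 491 to 6255 in fasn-high and 2782 to 7138 in fasn-low livers. One of them, the elastase gene *ela2l*, was the 1 gene of the 12 cell type lists in which the sides did not overlap in either batch and the difference was over 1 in size (−1.59). Of 22 markers of oocytes and ovary, 20 had a higher mean in fasn-high livers (median difference 0.68), and batch 1 OF 1 stood apart in them, with a list median of 7.32, against 1.80 to 4.62 on the other 7 arrays. The part of these cells in the differences was not tested. In bulk tissue, fewer cells of a type and less RNA per cell cannot be told apart.

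A gene was called higher where every fasn-high liver lay above every fasn-low liver within batch 1 and within batch 2 and the fitted difference, fasn-high minus fasn-low with batch as a term, was over 1 in log2 signal. It was called lower by the same rule turned round. Of 23673 genes, each taken at its brightest cluster, 414 were called higher (1.75%) and 182 lower (0.769%). These percentages are the background for every count of called list members below. Only 7382 of the 23673 genes had a mean signal over 5, while most called genes passed 5 on their brighter side. For lists of mostly bright genes these percentages are therefore too low as a background. For counts of higher or lower means the background is 12050 genes with a higher and 11623 with a lower mean in fasn-high livers, of all 23673. Because *fasn* of these arrays chose the sides, the calls describe the sides and are no test. Of the genes called higher, 355 had a mean signal over 5 in fasn-high livers, 57 differed by more than 2, and 64 did not overlap across all 8 arrays. Of those called lower, 130 had a mean signal over 5 in fasn-low livers, 10 differed by more than 2 in size, and 78 did not overlap across all 8 arrays. In limma, 0 of 59300 clusters had an adjusted p under 0.05 for the sides (lowest adjusted p = 0.0764), with 2571 clusters higher and 2397 lower at an unadjusted p under 0.05. Without batch 1 control 1 the genes called higher numbered 1065 and without batch 1 OF 2 they numbered 1049, and those called lower 570 and 613. Leaving out any of the other 6 arrays gave 427 to 515 called higher and 196 to 270 lower. Only the arrays kept had to separate, which loosens the rule, so a rise in these counts does not single out a liver.

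The 12 metabolic lists reach beyond fatty acid synthesis, to genes of glucose, amino acid and bile acid metabolism among others. Of their 403 measured genes, 13 were called higher, *fasn* among them, and 1 lower, against 1.75% and 0.769% of all genes. Most members of each of the 12 lists had a mean signal over 5, so these shares are a low background for them. A higher mean in fasn-high livers was found for 179 of the 403, against 12050 of all 23673 genes. The lists were written for these pathways with earlier results of these data known. *fasn* itself averaged 9.94 ± 1.11 in fasn-high and 6.00 ± 0.69 in fasn-low livers (SD, n = 4 each), a fitted difference of 3.94 or 15.3-fold, which is given as a description because it set the sides. The second cluster of *fasn* had signals of 11.19, 8.61, 10.01 and 8.99 in fasn-high livers, against 6.13, 4.88, 6.59 and 5.43 in fasn-low livers, with the same difference of 3.94.

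Of the 32 measured genes of fatty acid synthesis, 3 were called higher, *fasn* among them, and 0 lower. The median difference of the list was 0.13, against 0.01 over all genes. It was 0.36 in batch 1 and −0.02 in batch 2, and 0.01 to 0.23 with 1 array left out. Of the list, 20 of the 32 had a mean signal over 5. *acaca*, which encodes the acetyl-CoA carboxylase that makes malonyl-CoA for synthesis, had signals of 11.05, 10.55, 11.05 and 10.66 in fasn-high livers, against 8.08, 8.56, 10.09 and 8.14 in fasn-low livers. All fasn-high livers lay above all fasn-low livers, by 2.11 ± 0.43 (SE from limma). *mid1ip1b*, whose mammalian counterpart makes acetyl-CoA carboxylase polymerise, had 8.84, 8.46, 10.68 and 10.004 in fasn-high livers, against 6.09, 7.55, 8.43 and 5.39 in fasn-low livers. Its difference was 2.63 ± 0.72, and it was larger in batch 2 (3.43) than in batch 1 (1.83).

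**Figure D1:**
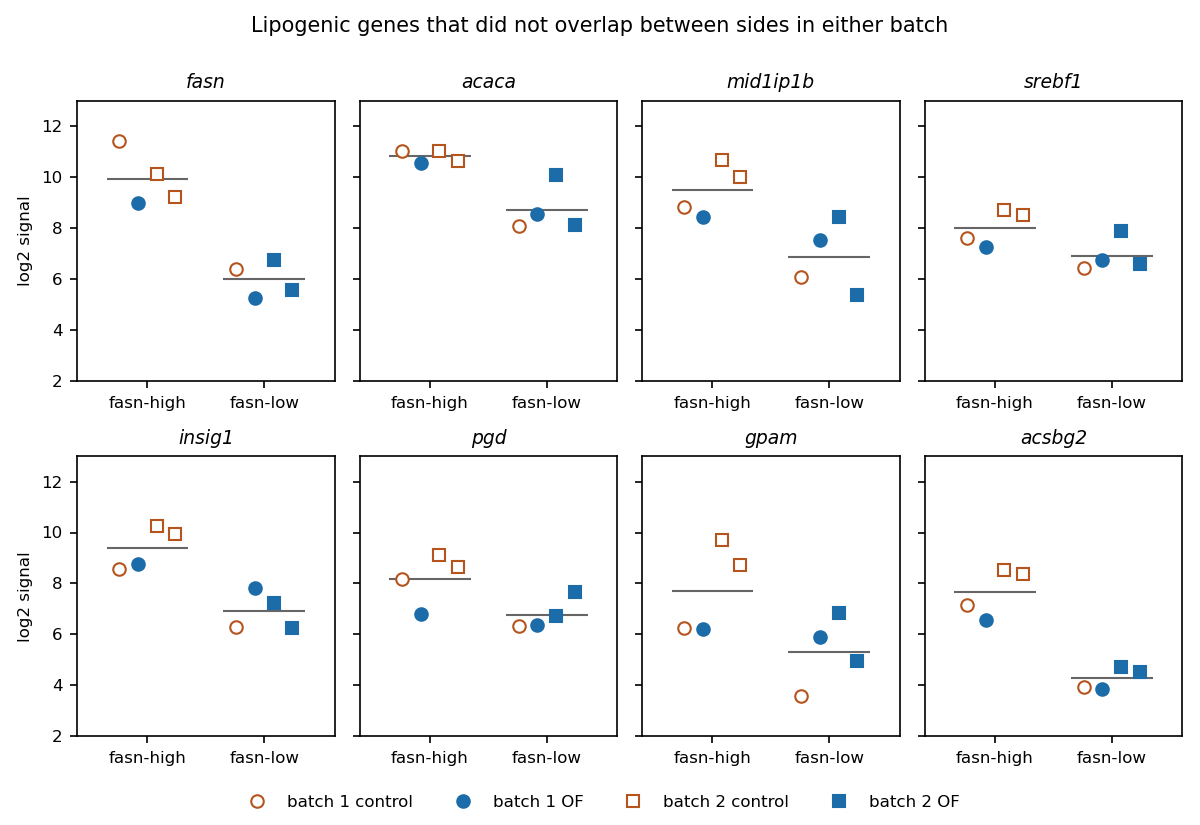
Log2 signal (y axis) of 8 genes of lipid metabolism in 4 fasn-high livers and 4 fasn-low livers (x axis), where circles are batch 1, squares batch 2, filled symbols OF and open symbols control livers, and lines are side means. Within each batch every fasn-high liver lies above every fasn-low liver, as the rule for these genes requires, with differences from 1.11 for *srebf1* to 3.94 for *fasn*.

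The desaturase gene *scd*, the second marker of the sides, did not separate them. Its signals were 11.31, 8.35, 11.43 and 8.29 in fasn-high livers, against 10.26, 6.26, 9.94 and 4.28 in fasn-low livers, with a difference of 2.16 ± 1.56. Batch 1 control 2 and batch 2 OF 1, both low in *fasn*, had more *scd* signal than 2 of the 4 fasn-high livers, so the sides are described here by *fasn* alone. With OF as a further term the difference of *scd* was 0.81.

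Several other lipogenic genes ran apart from *fasn*. They were picked after their values were seen. *mid1ip1l*, picked in the same way, had a higher mean in fasn-high livers, with a difference of 2.05 ± 0.99. It was 1.56 in batch 1, where the sides overlapped, and 2.53 in batch 2. *elovl6*, which encodes the elongase of palmitate, had 9.83, 6.65, 7.34 and 3.19 in fasn-high livers, against 8.88, 5.88, 8.39 and 9.61 in fasn-low livers, so that its difference was 0.86 in batch 1 and −3.73 in batch 2. *me1*, the gene of the malic enzyme that supplies NADPH, had 9.57, 5.22, 5.10 and 4.83 in fasn-high livers, against 9.65, 4.92, 6.36 and 10.90 in fasn-low livers. *thrsp*, a lipogenic gene related to *mid1ip1b*, ranged from 2.41 to 10.31 in fasn-high livers and from 2.56 to 11.68 in fasn-low livers. The highest signals of *me1* and *thrsp* were both in fasn-low livers. *elovl6*, *me1* and *thrsp* were each brightest on batch 1 control 1, batch 1 control 2 and batch 2 OF 2. These are the arrays with little *vtg2* signal, from both sides. *acacb*, the carboxylase gene whose product curbs fatty acid oxidation, averaged 7.03 in fasn-high and 8.56 in fasn-low livers, opposite to *acaca*, with a difference of −1.53 ± 0.93 and overlap in batch 1. *aclya*, one of the genes of ATP citrate lyase, which provides acetyl-CoA, differed by 0.07 ± 0.44.

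**Figure D2:**
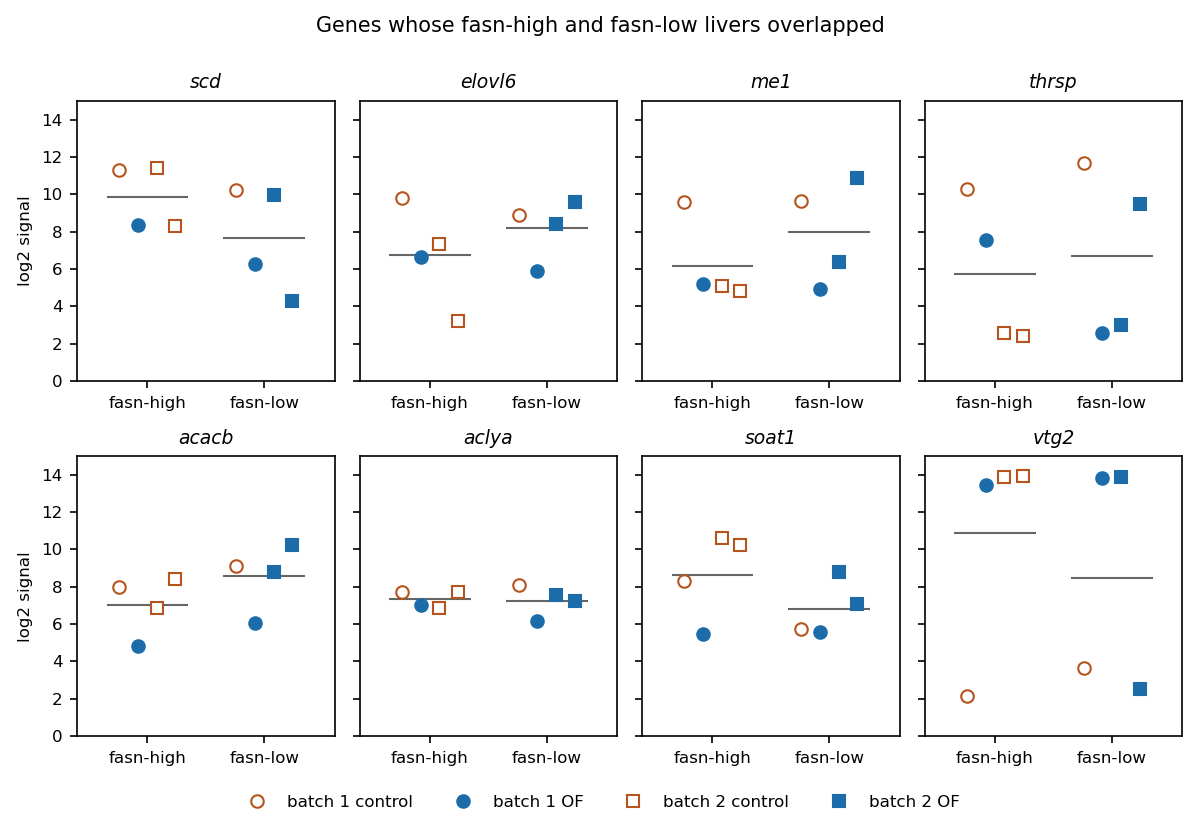
Log2 signal (y axis) of 7 lipid genes and *vtg2* in fasn-high and fasn-low livers (x axis), with symbols for batch and feeding and lines at side means. In each panel the sides overlap in at least 1 batch, and *me1*, *thrsp* and *elovl6* reach 9.61 or more in fasn-low livers.

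Among the 28 measured regulators of lipogenesis, 2 were called higher and 1 lower, with a list median of 0.04. *srebf1* had signals of 7.62, 7.25, 8.71 and 8.53 in fasn-high livers, against 6.42, 6.76, 7.88 and 6.60 in fasn-low livers, a difference of 1.11 ± 0.30. *insig1*, whose product holds the SREBP precursors in the endoplasmic reticulum (ER) and is itself an SREBP target in mammals, had 8.59, 8.76, 10.24 and 9.96 in fasn-high livers, against 6.29, 7.84, 7.23 and 6.23 in fasn-low livers. Its difference of 2.49 ± 0.49 was the largest of the list. *nr1h4*, the bile acid receptor FXR, had 7.26, 7.94, 8.04 and 8.65 in fasn-high livers, against 9.15, 8.75, 9.67 and 9.47 in fasn-low livers. It was lower in every fasn-high liver than in any fasn-low liver, by −1.29 ± 0.22.

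The other measured regulators named here followed *fasn* less closely or not at all. The gene of ChREBP, *mlxipl*, matched no cluster with 1 gene symbol and is not among them. *srebf2*, the gene of the SREBP that drives sterol synthesis, differed by 0.12 ± 0.43, with −0.54 in batch 1 and 0.78 in batch 2. *nr1h3*, the liver X receptor, which induces *srebf1* in mammals, differed by 0.08 ± 0.18. *pparab* differed by 0.30 ± 0.70 and *ppargc1a*, a coactivator of fasting programmes, by 0.46 ± 0.87. *scap*, the escort of SREBP, differed by 0.84 ± 0.34 and overlapped between the sides.

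Genes that supply NADPH or use the new fatty acids were called singly. In the pentose phosphate and NADPH list 1 of 12 genes was called higher, with a median of 0.24. It was *pgd*, 6-phosphogluconate dehydrogenase, at 8.19, 6.79, 9.13 and 8.64 in fasn-high livers, against 6.32, 6.35, 6.72 and 7.67 in fasn-low livers, a difference of 1.42 ± 0.36. *rpia*, in the same pathway, differed by 0.56 ± 0.27 and was not called. Of 32 genes of triglyceride synthesis and storage, 1 was called higher, *gpam*, the acyltransferase that attaches the first fatty acid to glycerol phosphate, and the list median was −0.03. *gpam* had 6.25, 6.21, 9.69 and 8.72 in fasn-high livers, against 3.58, 5.88, 6.84 and 4.94 in fasn-low livers, a difference of 2.41 ± 0.69. In batch 1 its fasn-high livers stood only narrowly above batch 1 OF 2. *agpat4*, the gene of the next acyltransferase family, differed by −0.39 in batch 1 and 3.56 in batch 2. It was lowest on the arrays with little *vtg2* signal, and its difference was 0.48 with the mean of 5 vitellogenin genes as a covariate.

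Genes that activate fatty acids and ketone bodies were among those with the largest differences, on a list written after the values were seen. Of its 29 genes 5 were called higher and 0 lower, while its median was −0.06. *acsbg2*, an acyl-CoA synthetase of the bubblegum family, had 7.16, 6.55, 8.51 and 8.36 in fasn-high livers, against 3.94, 3.85, 4.73 and 4.54 in fasn-low livers. Its difference of 3.38 ± 0.23 was similar in batch 1 (2.96) and batch 2 (3.80), and the gap between the lowest fasn-high and the highest fasn-low liver was wide. *aacs*, whose product turns acetoacetate into acetoacetyl-CoA for lipid synthesis in the cytosol, had 9.40, 8.64, 8.74 and 8.11 in fasn-high livers, against 4.86, 6.12, 6.85 and 2.74 in fasn-low livers, a difference of 3.58 ± 0.84. *acsl4a*, *acsl3b* and *slc27a4*, 3 further acyl-CoA synthetase genes, differed by 1.43 ± 0.43, 1.42 ± 0.30 and 1.42 ± 0.31. *acsl4a* differed by 0.39 in batch 1 and 2.47 in batch 2.

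Of the 32 genes of sterol synthesis and uptake, 2 were called higher and 24 had a higher mean in fasn-high livers. The list median was 0.75, with 0.37 in batch 1 and 1.00 in batch 2, the highest of the 12 metabolic lists. *acat2*, the cytosolic thiolase that starts the pathway, had 7.01, 8.17, 8.68 and 9.05 in fasn-high livers, against 4.87, 6.61, 8.34 and 6.38 in fasn-low livers, a difference of 1.68 ± 0.56. *mvk*, mevalonate kinase, had 2.13, 4.13, 4.99 and 5.30 in fasn-high livers, against 1.81, 1.97, 2.11 and 2.73 in fasn-low livers, a difference of 1.98 ± 0.50 at dim signals. *hmgcs1*, the synthase of HMG-CoA, had 6.28, 10.76, 10.76 and 10.08 in fasn-high livers, against 4.46, 8.42, 7.10 and 6.13 in fasn-low livers. Its difference of 2.94 ± 1.2 was above that of both called genes, but batch 1 OF 2 at 8.42 lay above batch 1 control 1 at 6.28, so it was not called. *fdps*, *sqlea* and *lss*, further along the pathway, were each at their lowest on the 3 arrays with little *vtg2* signal, whatever the side. *sqlea* had 3.28, 8.67, 8.45 and 8.19 in fasn-high livers, against 3.14, 7.18, 7.07 and 2.88 in fasn-low livers. With the mean of 5 vitellogenin genes as a covariate the list median was 0.40. *soat1*, which encodes the enzyme that esterifies cholesterol, had 8.30, 5.46, 10.59 and 10.23 in fasn-high livers, against 5.72, 5.58, 8.78 and 7.08 in fasn-low livers, and overlapped in batch 1. *hmgcra* and *hmgcrb*, picked after their values were seen, differed by 1.76 ± 1.54 and 0.94 ± 0.21. *hmgcra* too was at its lowest on the 3 arrays with little *vtg2* signal. The sides did not overlap for *hmgcrb* in either batch, but its difference lay under the cut of 1.

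Most genes of fatty acid oxidation had a lower mean where *fasn* was high. In the list of PPAR and fatty acid oxidation 42 of 55 genes had a lower mean in fasn-high livers, against 11623 of all 23673 genes. The list median was −0.30, against 0.01 over all genes. The median was −0.11 in batch 1 and −0.54 in batch 2, −0.57 to −0.12 with 1 array left out, and −0.10 with the mean of 5 vitellogenin genes as a covariate. It was −0.22 for the batch 2 controls minus batch 2 OF 1. Of these genes, 0 were called lower and 2 were called higher, *acsl4a* and *angptl4*, whose product inhibits lipoprotein lipase. *angptl4* had 6.90, 4.72, 8.39 and 8.81 in fasn-high livers, against 4.23, 4.02, 6.36 and 7.75 in fasn-low livers, a difference of 1.62 ± 0.51. *cpt1ab*, a carnitine palmitoyltransferase gene, differed by −1.02 ± 0.75 and overlapped between the sides. This lean was not particular to oxidation. Lower means were found for 24 of 32 genes of insulin and IGF signalling and 22 of 33 of gluconeogenesis and glycogen. They were also found for 36 of 59 of amino acid breakdown, 21 of 32 of lipid transport, 9 of 15 bile acid genes and 19 of 20 hepatocyte markers. Glycolysis (21 of 41) and triglyceride synthesis and storage (16 of 32) were near even. Fewer were lower among lipogenic regulators (12 of 28), fatty acid synthesis (11 of 32), sterol synthesis and uptake (8 of 32) and pentose phosphate and NADPH (2 of 12).

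In the lists of glucose, insulin and amino acid metabolism, 0 genes were called in either direction, out of 41 of glycolysis, 33 of gluconeogenesis and glycogen, 32 of insulin and IGF signalling and 59 of amino acid breakdown. The medians were −0.03, −0.07, −0.23 and −0.08. *ldha* and *pkma*, of the last steps of glycolysis, differed by 1.29 ± 0.39 and 1.28 ± 0.40. The 2 *igfbp1* genes, which encode insulin-like growth factor binding proteins that are induced by fasting, had the largest differences of the insulin list. *igfbp1a* had 11.44, 5.17, 8.35 and 9.07 in fasn-high livers, against 11.79, 10.21, 10.08 and 11.996 in fasn-low livers. It was high in all 4 fasn-low livers and in batch 1 control 1, and its difference was −2.51 ± 1.28. *igfbp1b* differed by −2.47 ± 1.14. Without batch 1 OF 1 the differences were −1.22 for *igfbp1a* and −1.37 for *igfbp1b*, and with OF as a further term −3.88 and −3.62. With the vitellogenin mean as a covariate they were −1.84 and −1.89. *pck1* encodes a key enzyme of gluconeogenesis. Its signals were 11.05, 6.02, 10.99 and 9.10 in fasn-high livers, against 9.63, 3.72, 5.40 and 10.56 in fasn-low livers. The difference of *pck1* was 1.97 ± 1.79. It was 0.11 with OF as a further term and 3.13 with the vitellogenin mean as a covariate. *foxo1a*, a transcription factor active when insulin is low, differed by −1.76 ± 0.89, by −0.83 as the mean over its clusters and by −0.997 without batch 1 OF 1. Its difference was −2.65 with OF as a further term and −1.23 with the vitellogenin covariate. *prodha*, proline dehydrogenase, differed by 2.69 ± 1.04 and *tdo2b*, of tryptophan breakdown, by −2.06 ± 1.32, and both overlapped in batch 1. With OF as a further term they differed by 1.19 and −3.36, and with the vitellogenin covariate by 3.13 and −1.41. Without batch 1 OF 1 *tdo2b* differed by −0.80. *igfbp1a*, *foxo1a* and *tdo2b* were each at their highest on the arrays with little *vtg2* signal, whatever the side.

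Lipid transport and bile acid genes gave 1 call each. *fabp7a*, a fatty acid binding protein gene, was called among 32 genes of lipid transport, whose median was −0.16. It had 6.87, 7.38, 11.51 and 11.23 in fasn-high livers, against 3.15, 4.81, 9.87 and 6.09 in fasn-low livers, a difference of 3.26 ± 0.79, or 3.14 in batch 1 and 3.38 in batch 2. *apoa1a*, the gene of the main apolipoprotein of high density lipoprotein, differed by −0.33 in batch 1 and −5.04 in batch 2. Its signal was highest on the arrays with little *vtg2* signal, at 11.04, 11.66 and 11.92. Among 15 bile acid genes the call was *cyp7a1a*, of the rate-limiting enzyme of bile acid synthesis, at 1.78, 3.82, 7.66 and 5.45 in fasn-high livers, against 1.66, 1.57, 3.23 and 1.94 in fasn-low livers. It was bright only in the 2 batch 2 controls, and batch 1 control 1 and control 2 differed by 0.12. *cyp27a7* differed by −1.68 ± 0.83 and *slc27a2a* by −0.62 ± 0.51. Of 41 measured circadian clock genes, 1 was called higher, *npas2*, a partner of the clock factor Bmal1, by 1.29 ± 0.46, and the list median was 0.00.

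**Figure D3:**
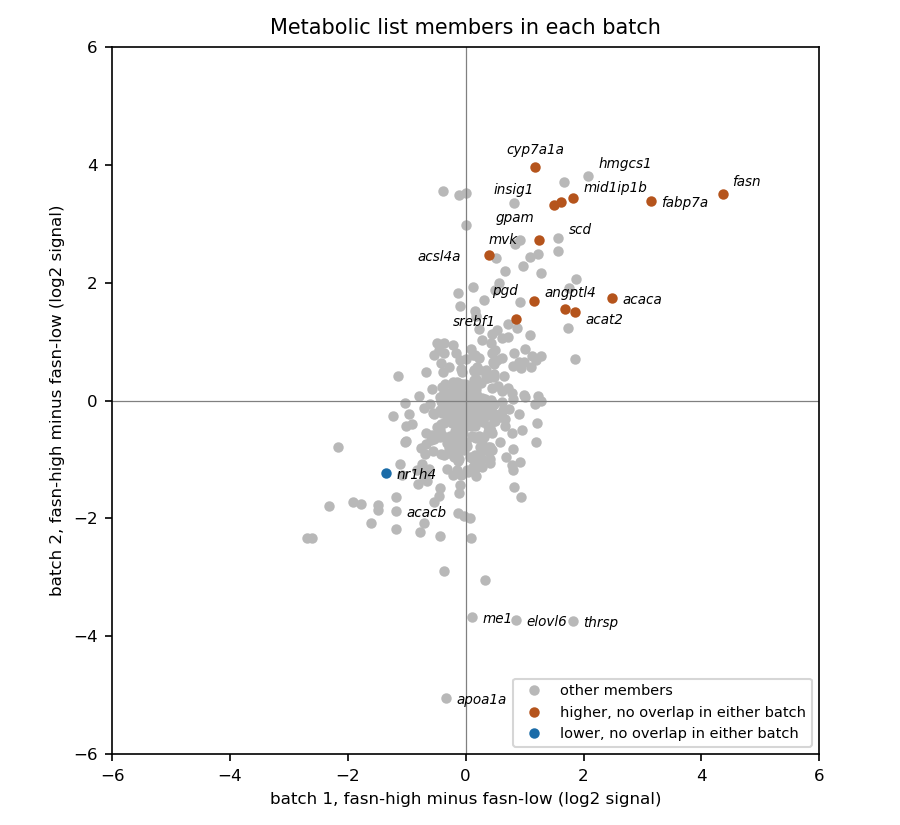
Difference in log2 signal, fasn-high minus fasn-low, in batch 1 (x axis) and batch 2 (y axis) of the members of the 12 metabolic lists, 1 point a gene, with called genes in colour. The 13 genes called higher lie in the upper right, *nr1h4* is the 1 called lower, and *me1*, *elovl6* and *thrsp* lie above 0 in batch 1 and below it in batch 2.

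Of the lists examined here, those of the secretory pathway held the most calls. Genes of the secretory pathway, which folds, glycosylates and ships proteins made at the ER, stood in 3 lists. These lists were written after the calls were seen, so their counts are a description of what was called. In all, 72 of 192 measured genes of the 3 lists were called higher and 0 lower, 177 had a higher mean in fasn-high livers, and they made up 17.4% of the genes called higher.

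Of 67 measured genes of ER chaperones and the unfolded protein response, the programme that raises ER folding capacity, 29 were called higher, with a list median of 1.06 (0.84 in batch 1 and 1.15 in batch 2). *hspa5*, the main ER chaperone BiP, had 8.99, 10.32, 11.66 and 11.57 in fasn-high livers, against 3.13, 8.05, 9.18 and 7.76 in fasn-low livers. Its difference was 3.60 ± 1.02, and batch 1 control 2 at 3.13 was far below the other 3 fasn-low livers. *dnajb9b*, a co-chaperone of BiP, had 6.81, 6.51, 8.65 and 9.03 in fasn-high livers, against 2.89, 4.0, 4.59 and 4.96 in fasn-low livers, a difference of 3.64 ± 0.30. *manf*, a small protein released under ER stress, differed by 2.91 ± 0.65, *hyou1*, a large ER chaperone, by 2.81 ± 0.48, *creld2* by 2.59 ± 0.55 and *sdf2l1* by 2.36 ± 0.41. *calr3b*, a calreticulin gene, differed by 2.29 ± 0.64. Of the sensors and effectors of the response, *eif2ak3*, the gene of the sensor PERK, was called at 1.27 ± 0.34 and *trib3* at 1.36 ± 0.39. The transcription factor genes *xbp1*, *atf4a* and *ddit3* were not called and differed by 0.95 ± 0.70, 0.43 ± 0.28 and −0.03 ± 0.54.

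Of 59 genes of ER entry and N-glycosylation 12 were called higher, with a median of 0.65. *slc35b1*, which carries ATP into the ER, had 6.70, 7.18, 9.94 and 10.15 in fasn-high livers, against 4.63, 5.58, 7.49 and 6.61 in fasn-low livers, a difference of 2.42 ± 0.36. *pmm2* and *gmppab*, of the pathway to the mannose donor for glycosylation, differed by 2.65 ± 0.69 and 2.84 ± 0.74. *gmppab* differed by 1.12 in batch 1 and 4.56 in batch 2. *sec61a1l*, of the channel through which new proteins enter the ER, differed by 1.62 ± 0.28. Of 66 genes of the COPI and COPII vesicle coats and their cargo receptors, 31 were called higher, with a median of 1.02. They included the coat genes *copb2* (1.34 ± 0.27) and *sec24d* (1.26 ± 0.39) and the cargo receptor genes *surf4l* (1.95 ± 0.46) and *ergic3* (2.13 ± 0.42). Of 38 genes of phospholipid synthesis, 7 were called higher, among them *cept1a* (2.22 ± 0.37), *etnk2* (2.11 ± 0.41) and *ptdss2* (1.87 ± 0.40), and 1 lower, *cds1* (−1.35 ± 0.35).

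**Figure D4:**
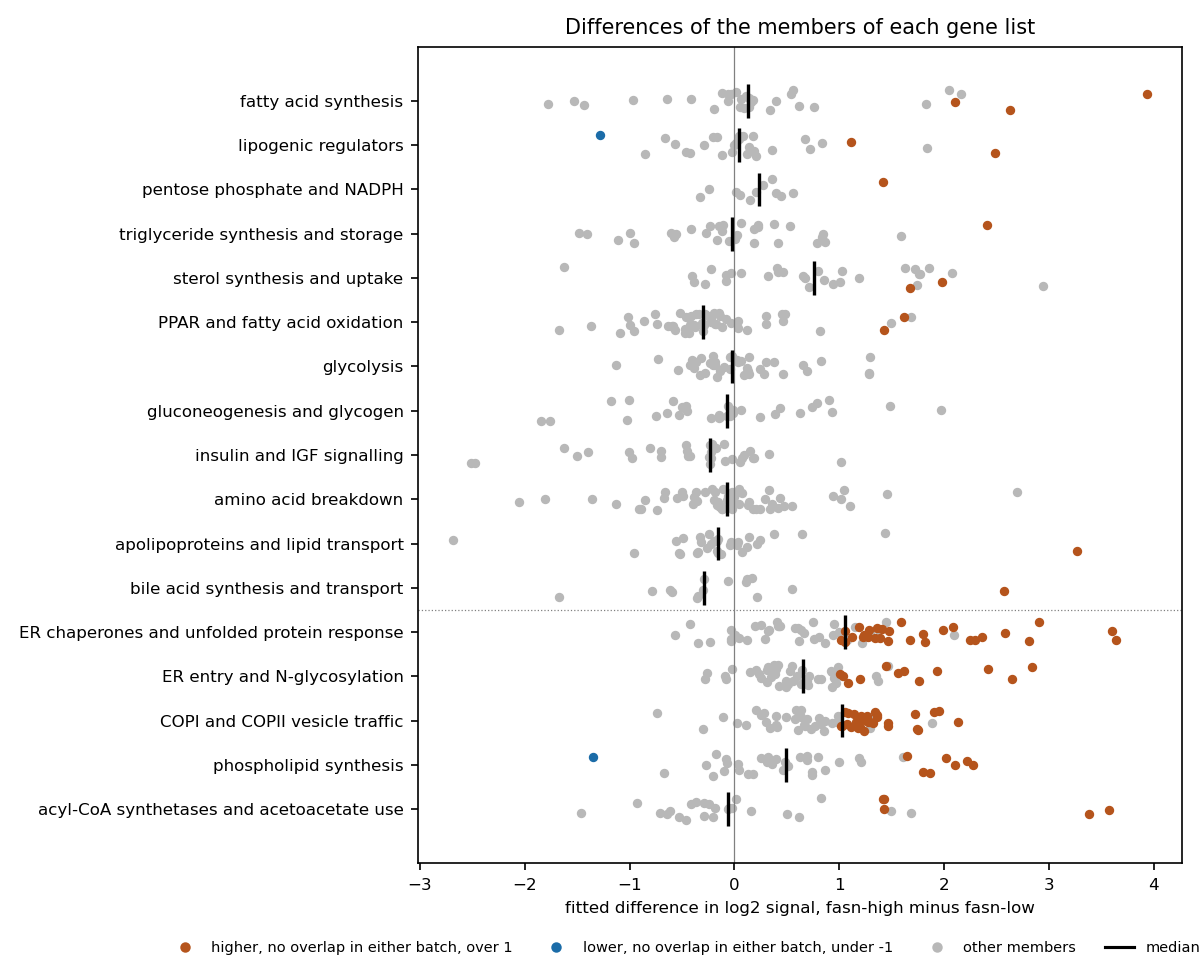
Fitted difference in log2 signal, fasn-high minus fasn-low (x axis), of every measured member of 17 gene lists (y axis), with called genes in colour and a black line at each list's median. The 5 lists under the dotted line were written after the values were seen, and the medians of ER chaperones (1.06) and vesicle traffic (1.02) lie above those of the metabolic lists, which run from −0.30 to 0.75.

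Vitellogenin is a large secreted protein, so the vitellogenin signals are set beside these lists. Between batch 1 control 1 and control 2, both with little *vtg2* signal, the median difference of the ER chaperone list was 0.92, and between batch 1 OF 1 and OF 2, both with much, it was 0.79. Between the 2 batch 2 controls and batch 2 OF 1, all with much *vtg2* signal, it was 0.97. The same 3 differences were 0.74, 0.60 and 1.24 for vesicle traffic, 0.43, 0.19 and 0.49 for sterol synthesis, and 0.02, 0.03 and −0.01 over all genes. The first of them lies within control livers and the second within OF livers. For called genes the call rule makes all 3 differences positive, and the 2 secretory lists were written after the calls were seen. These medians therefore describe the lists, and the part of vitellogenin or OF in them was not tested. With the vitellogenin mean as a covariate, 359 genes were called higher, 345 of them among the 414. The livers still had to separate in the unadjusted signals, so only the cut at a difference of 1 could change the calls. Much of this overlap is thus built in. With this covariate the difference of *fasn* was 4.13, that of *acaca* 1.99, that of *hspa5* 3.09 and that of *srebf1* 0.99. With OF as a further term 460 genes were called higher, 365 of them among the 414, again with separation asked of the unadjusted signals. The differences were 3.49 for *fasn*, 2.23 for *acaca* and 4.80 for *hspa5*. In batch 1 OF went with much *vtg2* signal and in batch 2 with the fasn-low side. No value fitted with the OF term therefore singles out OF.

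**Figure D5:**
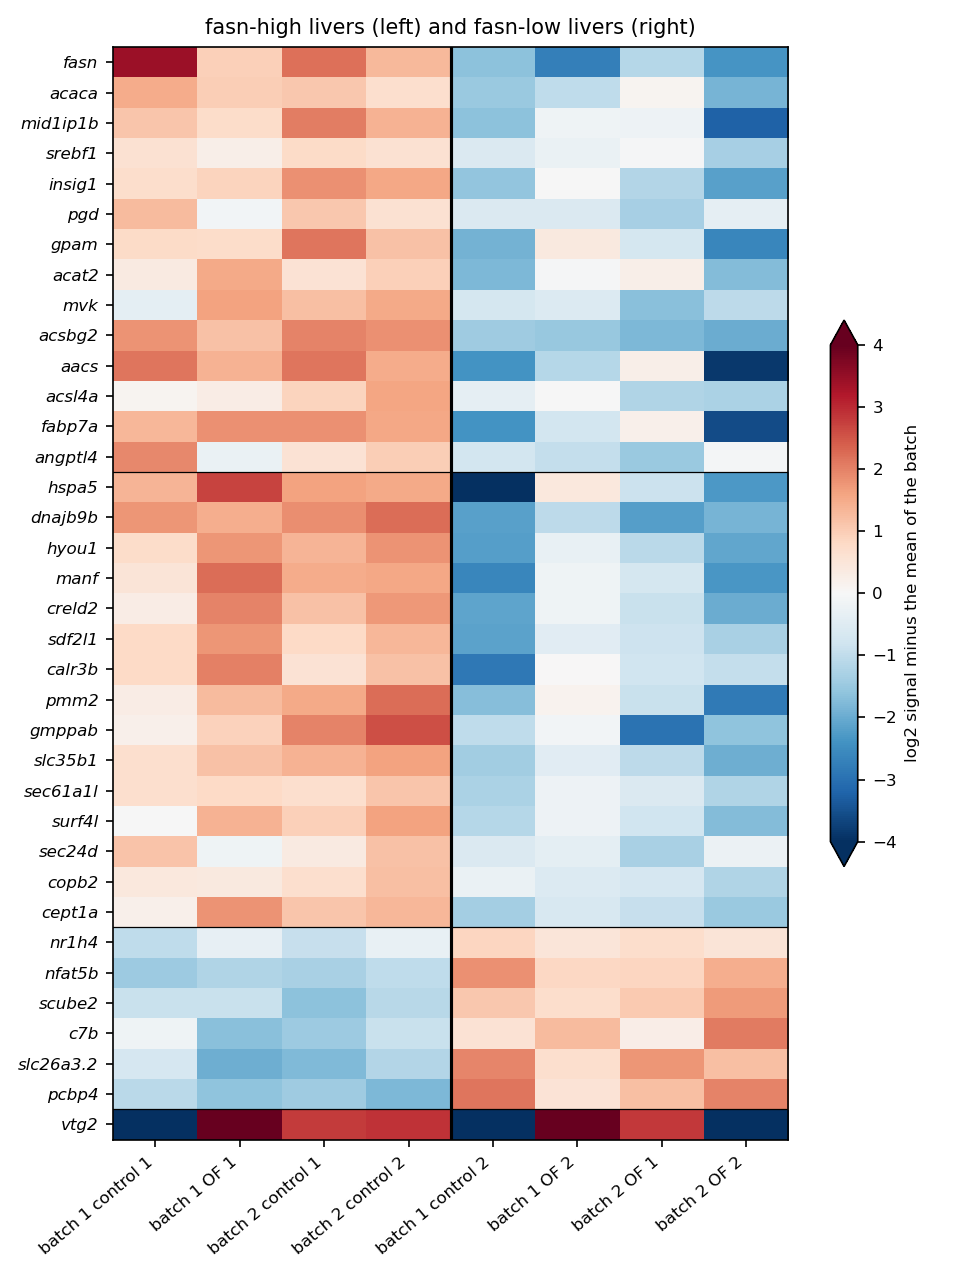
Log2 signal minus the mean of its batch (colour) of 36 genes (rows) on the 8 arrays (columns), fasn-high livers left of the black line and fasn-low livers right of it. Lipid genes are on top, then ER, vesicle and phospholipid genes, then genes lower in fasn-high livers, and *vtg2* at the bottom, which is high in 3 fasn-high and 2 fasn-low livers.

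The 10 genes with the largest differences among those called higher were *fasn*, *zgc:123275* (3.76 ± 0.50), *dnajb9b*, *hspa5*, *aacs*, *acsbg2*, *fabp7a*, *odc1*, *manf* and *gmppab*. *zgc:123275*, whose current symbol is *pla2g3*, had 6.64, 7.09, 9.42 and 10.43 in fasn-high livers, against 2.69, 2.93, 7.61 and 5.31 in fasn-low livers. *odc1*, ornithine decarboxylase of polyamine synthesis, had 6.96, 7.32, 10.23 and 8.17 in fasn-high livers, against 2.80, 6.34, 5.89 and 5.02 in fasn-low livers, a difference of 3.16 ± 0.83.

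Of the 182 genes called lower in fasn-high livers, 3 were on the lists: *nr1h4*, *cds1* and *ela2l*. The largest difference was that of *LOC100330866*, at 8.20, 8.87, 2.40 and 2.51 in fasn-high livers, against 9.61, 9.12, 9.0 and 9.02 in fasn-low livers. It was near its floor in the 2 batch 2 controls and differed by −0.83 in batch 1 and −6.55 in batch 2. *si:dkeyp-80d11.4* ran likewise, with −0.70 in batch 1 and −4.54 in batch 2. *pcbp4*, an RNA-binding protein gene, had 4.12, 3.58, 4.52 and 4.16 in fasn-high livers, against 7.32, 5.75, 7.15 and 7.94 in fasn-low livers, a difference of −2.94 ± 0.38 that was −1.83 as the mean over its 4 clusters. *slc26a3.2*, an anion exchanger gene, had 5.52, 4.26, 5.5 and 6.10 in fasn-high livers, against 8.15, 6.88, 9.04 and 8.47 in fasn-low livers, a difference of −2.79 ± 0.39. *nfat5b*, whose mammalian counterpart responds to osmotic stress, differed by −2.48 ± 0.26 and *scube2*, a secreted protein gene, by −2.26 ± 0.27. *c7b*, of complement component 7, differed by −2.1 ± 0.49, *cdk19*, a kinase of the Mediator complex, by −2.08 ± 0.39, *si:ch211-133n4.9* by −2.37 ± 0.47 and *si:ch211-1i11.3* by −2.01 ± 0.42. *gcgrb*, a glucagon receptor gene picked after its values were seen, had 5.58, 4.20, 6.30 and 5.97 in fasn-high livers, against 7.13, 5.63, 7.22 and 8.72 in fasn-low livers.

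The genes whose pattern was most like that of *fasn* were sought among 7141 genes with a mean signal over 5 and a range over 1. Likeness was Pearson's r over the 8 arrays after the mean of each batch was subtracted, and these 8 values share their arrays and the choice of sides. The highest r were those of *sgk2b*, *cactin* and *ppm1bb* at 0.95 and *plekha8*, *hnrnpd*, *bri3bp*, *slc4a2b* and *ppp2r4* at 0.94. Of these, *sgk2b*, a kinase gene, differed by 1.65 ± 0.34, *plekha8* by 1.72 ± 0.25 and *bri3bp* by 1.52 ± 0.22, while *hnrnpd* differed by 0.31 ± 0.11 and *ppp2r4* by 0.35 ± 0.13. The lowest r were those of *akap2* at −0.98, *LOC101883510* and *gpatch3* at −0.97 and *atrnl1b* at −0.95, with differences from −0.75 to −0.45, and that of *akap2* was −0.06 as the mean over its 3 clusters. Within the pathway r was 0.94 for *acsbg2*, 0.92 for *acaca*, 0.85 for *srebf1*, 0.69 for *scd*, −0.01 for *thrsp* and −0.93 for *nr1h4*.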

How the data were processed

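Liver RNA of 8 fish, 4 given OF and 4 controls in 2 batches, was hybridised to ZebGene 1.1 ST arrays, and groups were taken from the labels. Normalization by the authors, in the Transcriptome Analysis Console, corrected for GC content and transformed the signal space. They deposited log2 signals of 75212 clusters and worksheets of 59384. Per the file headers, the worksheets hold pooled averages, which matched the log2 values within rounding for 59379 of 59381 clusters in batch 1 and 59384 of 59384 in batch 2 and served only for names, and OF against control changes, folds and p-values, which were not used. After 84 control clusters were left out, 59300 clusters were fitted. Clusters with 1 symbol in the worksheets (24582) or a RefSeq accession in a gene table of the GRCz12tu assembly (5643) named 23673 genes, each represented by its brightest cluster. No source used here names the build of the clusters.

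Fits used limma 3.58.1 in R 4.3.3 (lmFit, eBayes) with side and batch as terms, Benjamini-Hochberg adjustment over all clusters and moderated standard errors, and were tested on simulated data. Calls were counted with pandas 2.3.3 in Python 3.11.15 and plotted with matplotlib 3.10.9. The sides and gene lists were chosen with earlier results of these data known, and the secretory, phospholipid and acyl-CoA synthetase lists after the values were seen. Named genes were *fasn*, *scd*, 5 matched regulators, up to 4 members of each metabolic list by the size of the difference, the 10 largest calls in each direction, and those with the 8 highest and 4 lowest correlations with *fasn*. The alternatives tried were each batch alone, no batch term, OF or the mean of 5 matched vitellogenin genes as a further term, a replicate block, quantile normalization, a signal filter, all clusters of a gene, an adjusted p as the call rule, and each array left out. Replicates are separate fish, and the 4 arrays a side limit the precision.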

Additional observations from a re-analysis of the deposited data

Results flagged for a closer look

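In 4 of 122 sets of 4 livers, from 61 named genes, 1 liver lay far from the other 3 of its side by Dixon's ratio of gap to range, which chance gives in about 1 of 20 sets. In fasn-high livers, batch 1 OF 1 was lowest for *pparab*, a PPAR alpha gene, at 6.33, against 9.11, 9.29 and 9.61 in the others. The same liver was lowest for *prodha* at 6.15, against 10.12, 10.37 and 10.65, and for *slc27a2a* at 9.09, against 11.17, 11.26 and 11.28. In fasn-low livers, batch 1 control 2 was lowest for *ldha* at 3.69, against 5.41, 5.59 and 5.62.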

How the results depend on the processing

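The 35 named genes that were called kept the sign of their difference under all 533 alternatives tried for them. The call rule itself fixes that sign when 1 array is left out, 1 batch is used or the batch term is dropped. Most of these alternatives are therefore no test of the sign. Of the 35 genes, 0 moved by over 1.5 times when 1 array was left out or a term was added. Other alternatives moved some of them further. In batch 1 alone *acsl4a* differed by 0.39, against 1.43, and *LOC100330866* by −0.83, against −3.69. Over all its clusters *pcbp4* differed by −1.83, against −2.94. Batch 1 alone gave 621 genes called higher and 359 lower (271 of the 414 and 126 of the 182 among them), and batch 2 alone 1382 and 1092 (370 and 153 among them), where only the livers of that batch had to separate. Without the batch term, where all 8 arrays had to separate, 64 were higher and 78 lower. With an adjusted p under 0.05 in limma as the call rule, 0 were higher and 0 lower. Leaving out 1 array, where only the arrays kept had to separate, gave 427 to 1065 genes called higher and 196 to 613 lower. The count of 1065 was without batch 1 control 1 and that of 613 without batch 1 OF 2. The deviations of arrays with the same number had r = 0.113 (batch 1) and r = −0.0727 (batch 2). In batch 1 the replicate number equals the side, so a shared replicate effect cannot be told apart from the side there. A replicate block, which likewise equals the side in batch 1, gave 436 genes called higher and 174 lower. Of these, 369 and 150 were among the 414 and the 182. As with the OF and vitellogenin terms, only the cut on the difference could change these calls. Of the differences of uncalled regulators, that of *pparab* was −0.59 and that of *ppargc1a* −0.18 with OF as a further term. The median of the sterol list ran from 0.40 to 1.13 over the alternatives that kept all arrays and both batches and from 0.42 to 1.27 with 1 array left out. The medians of the triglyceride, glycolysis, amino acid and lipogenic regulator lists changed sign in 6, 7, 6 and 5 of 16 alternatives. Signals near the floor of the arrays limit *mvk*, *cyp7a1a* and *slc27a4*.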
